A study of Mus musculus with 21 samples.

Results

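Expression of 9 myogenic regulators and MEF2 factors, Myod1, Myog, Myf5, Myf6, Pax7, Runx1, Mef2a, Mef2c and Mef2d, was followed in mouse quadriceps muscle after exhaustive exercise. The genes were taken by symbol from a table of 53738 gene symbols measured by bulk RNA-seq, and all 9 symbols were found. The 21 libraries came from 7 groups of male wild-type C57/Bl6 mice, 22 to 26 weeks old at sacrifice, with 3 libraries per group. Sedentary mice did no exercise. Untrained mice were killed right after 1 treadmill run to exhaustion (0 h), or 6 h or 72 h later. Trained mice had voluntary access to running wheels for 12 weeks, from the age of 12 weeks, then ran to exhaustion once and were killed at the same times. Trained muscle without the run was not analysed here, so values of trained muscle were set against sedentary muscle and against untrained muscle at the same time. The comparisons ask how these factors respond to an exercise bout and whether training alters that response.

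Myod1, Myog, Myf5 and Myf6 encode the myogenic regulatory factors (MRFs), basic helix-loop-helix proteins that pair with E proteins, bind the E-box CANNTG and switch on muscle genes. Myod1 and Myf5 act in myoblasts, Myog drives their terminal differentiation, and Myf6 is the MRF best known from mature fibres. Pax7 maintains satellite cells, the stem cells of muscle, Runx1 is a transcription factor known to rise in denervated muscle, and Mef2a, Mef2c and Mef2d encode MADS-box proteins that work with the MRFs and are held back by class IIa histone deacetylases.

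In the GENCODE annotation of GRCm39, all members were protein-coding genes. Myod1 lies at chr7:46025870-46028526, Myog at chr1:134217707-134220287, Mef2c at chr13:83652064-83815555 and Mef2d at chr3:88049185-88079398, all on the plus strand. On the minus strand are Myf6 at chr10:107328712-107330656, Myf5 at chr10:107318769-107321995, Pax7 at chr4:139464373-139560839, Mef2a at chr7:66880911-67022606 and Runx1 at chr16:92398354-92623037. Myf6 and Myf5 are neighbours on the same strand with 6716 bases between them. The 250 bases before the annotated start of Myod1, Myog and Myf6, the MRFs that changed after exercise, are shown 5′ to 3′ on the gene's strand, from GRCm39, with E-boxes and MEF2 sites in capitals:
Myod1, chr7:46025620-46025869, plus strand: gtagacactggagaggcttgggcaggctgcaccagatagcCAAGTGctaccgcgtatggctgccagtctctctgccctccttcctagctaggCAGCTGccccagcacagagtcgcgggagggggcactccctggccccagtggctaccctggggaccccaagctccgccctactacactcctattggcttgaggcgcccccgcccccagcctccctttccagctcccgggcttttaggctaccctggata
Myog, chr1:134217457-134217706, plus strand: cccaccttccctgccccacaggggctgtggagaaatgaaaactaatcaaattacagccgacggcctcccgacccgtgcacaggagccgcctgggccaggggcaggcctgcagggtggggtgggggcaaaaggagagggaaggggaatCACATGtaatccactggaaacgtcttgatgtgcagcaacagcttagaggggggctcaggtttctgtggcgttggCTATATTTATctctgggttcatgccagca
Myf6, chr10:107330657-107330906, minus strand: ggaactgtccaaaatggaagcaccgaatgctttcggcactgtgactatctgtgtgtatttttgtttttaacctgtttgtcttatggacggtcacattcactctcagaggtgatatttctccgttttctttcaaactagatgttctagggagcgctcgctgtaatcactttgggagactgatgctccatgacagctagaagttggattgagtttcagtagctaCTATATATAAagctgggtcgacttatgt

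Motifs were searched on both strands, and the TATA box on the gene's strand only, in the 250 bases before the start of each gene's canonical transcript. For Mef2c and Mef2d that start lies inside the gene span given above, with windows at chr13:83672170-83672419 and chr3:88049382-88049631. The Myod1 window held 2 E-boxes, CAAGTG beginning 210 bases and CAGCTG beginning 158 bases before the start. The Myog window held 1 E-box, CACATG, at 103 bases, and CTATATTTAT at 29 bases. That match lacks the purine at the last base of the MEF2 site, and a MEF2 site with that base free was searched only after the full site had given no match. The Myf6 window held no E-box and 1 full MEF2 site, CTATATATAA, at 28 bases, which overlaps the TATA box TATAAA at 23 bases on the gene's strand. Among the 250-base windows of 21770 protein-coding genes, 64.8% held an E-box, 2.79% a full MEF2 site, 6.64% a MEF2 site with the last base free and 8.03% the TATA box on the gene's strand. An E-box is therefore common in such windows and a full MEF2 site is rare. Of the other members, the Runx1 window held 3 E-boxes and 1 RUNX site TGTGGT, which 13.0% of windows hold. The Pax7 window held 1 E-box, the Myf5 window 1 RUNX site, and the Mef2c window 1 AP-1 site TGANTCA, found in 6.17% of windows. These motifs and the CArG box of SRF (1.4% of windows) gave no match in the windows of Mef2a and Mef2d. These matches describe the sequence, and binding was not measured.

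The values are TPM, a transcript abundance scaled for transcript length and to a near-constant total, so that levels can be set side by side between genes. Sequencing depth cannot be read from TPM, and counting error is therefore not given. Replicate 1 of untrained 0 h and replicate 1 of trained 0 h held the same values in all 53738 rows, 25037 of them above 0. The table thus holds 20 distinct libraries. For members and pathway genes, 0 h calls against sedentary muscle are also given without the shared library, removed from both 0 h groups, which leaves 2 libraries in each. Other values of the 0 h groups include it unless stated. The 8 myofibre markers summed to between 71860 and 102155 TPM per library, with no marker at 0, as the quadriceps label requires. Those sums were between 75979 and 87146 TPM in sedentary muscle and higher, between 90640 and 102155 TPM, at 0 h in both training states. Differences were tested with limma on log2(TPM + 0.5) over the 11819 genes that averaged 1 TPM or more, with Benjamini-Hochberg adjustment. A call required both an adjusted p below 0.05 and a change of 1.5-fold or more, up or down. With 3 libraries against 3, a two-sided exact permutation test of a single gene cannot give a p below 0.1. Over all tested genes, the median log2 fold change at 0 h against sedentary muscle was 0.105 for untrained and 0.133 for trained muscle, and from 0 h to 6 h in trained muscle it was −0.151. Median-of-ratios scaling moved these medians by −0.109, −0.136 and 0.15.

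Levels of the 9 members spanned a wide range in sedentary muscle. Mef2c was the highest with 74.8 ± 6.62 TPM (SD, n = 3), followed by Mef2d with 41.6 ± 3.59, Myf6 with 27.7 ± 1.75 and Mef2a with 17.2 ± 1.16 TPM. Myod1 stood at 4.41 ± 1.72 TPM and Myog at 0.941 ± 0.292 TPM. Myf5, Pax7 and Runx1 were lower still, at 0.536 ± 0.0148, 0.301 ± 0.0394 and 0.221 ± 0.0197 TPM. These 3 genes had a mean below 1 TPM over all libraries, so 6 of the 9 members entered the test. Values for the other 3 come from the same model fitted without the filter to 36627 genes. Shares of genes whose libraries do not overlap are always over the 11819 tested genes, which leave out these 3.

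**Figure D1:**
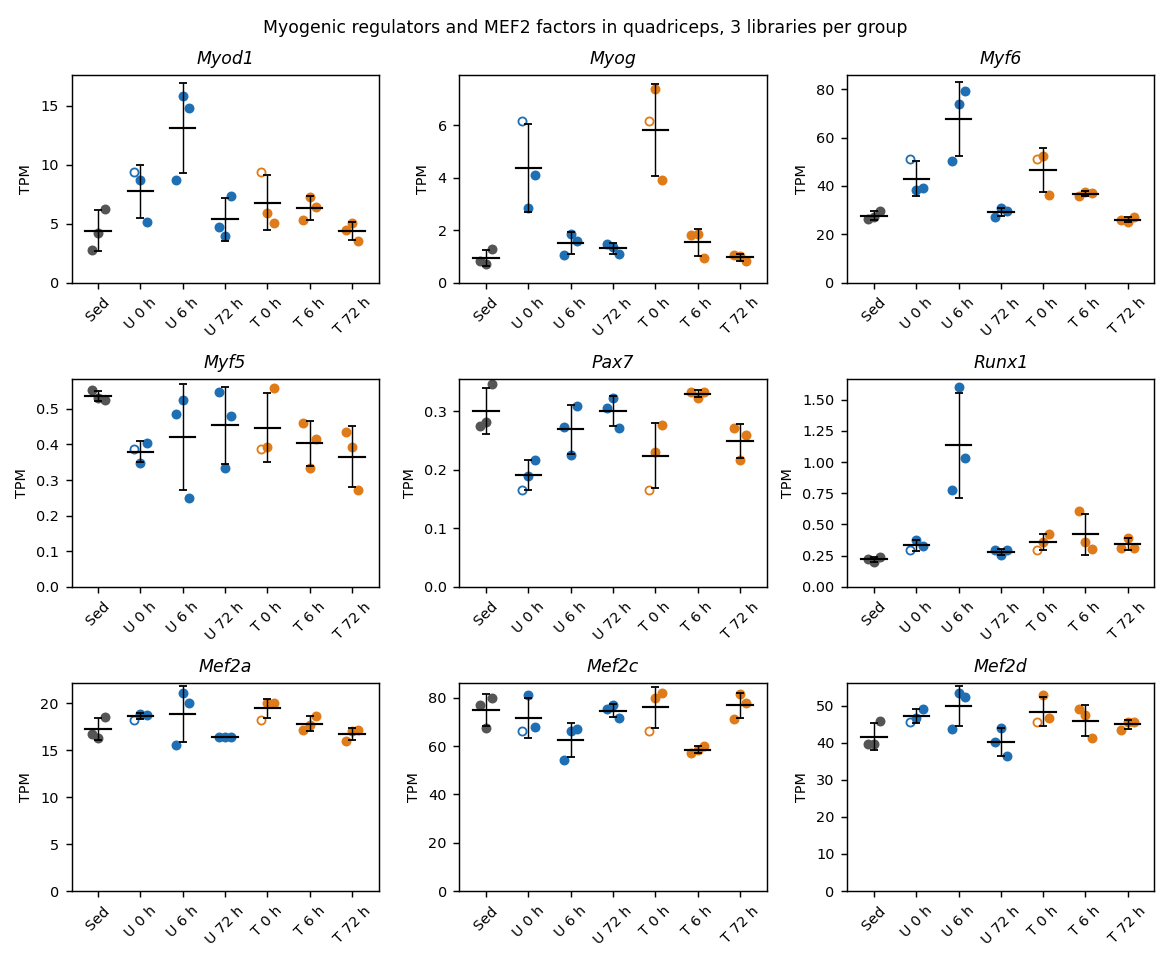
TPM (linear axis from 0) of the 9 members in each library, by group (Sed, sedentary; U, untrained; T, trained; hours after exercise), with the mean and SD of 3 libraries. White points mark the library that is identical in both 0 h groups. Myog peaked at 0 h in both training states, whereas Myod1, Myf6 and Runx1 had their highest means in untrained muscle at 6 h, and the MEF2 genes kept close to their sedentary level.

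Against sedentary muscle, 2 of the 6 tested members were called at 0 h in untrained muscle, where 3.59% of all tested genes were called, and 2 at 0 h in trained muscle, against 3.74% of all genes. At 6 h, 2 were called in untrained muscle (4.42% of all genes) and 0 in trained muscle (3.85% of all genes). In trained muscle 2 members had an unadjusted p below 0.05, as had 2854 of all 11819 tested genes. At 72 h none of the 6 was called or had an unadjusted p below 0.05 in either state, against 0.00846% of all genes called in untrained and 0.169% in trained muscle. All called members rose. In bulk tissue, fewer or more cells of a type cannot be told apart from less or more RNA per cell.

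Myog, the factor that drives myoblasts into differentiation, rose at once after the run in both training states. Its TPM was 0.826, 0.724 and 1.27 in the sedentary libraries. At 0 h it was 6.18, 2.84 and 4.12 in untrained muscle and 6.18, 7.39 and 3.91 in trained muscle, the value of 6.18 being that of the shared library. Every 0 h library thus lay above every sedentary library, as for 22.9% of all tested genes in untrained and 26.3% in trained muscle. The mean of Myog was 4.65-fold higher in untrained and 6.19-fold higher in trained muscle. On the log2 scale Myog rose by 1.72 ± 0.27 (SE) in untrained (limma, adjusted p = 0.000555) and by 2.11 ± 0.27 in trained muscle (adjusted p = 7.38e-05). Without the shared library the differences were 1.47 (adjusted p = 0.00648) and 2.05 (adjusted p = 0.000418).

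By 6 h the Myog level had come down again. Its TPM was 1.04, 1.87 and 1.59 in untrained and 1.82, 1.85 and 0.942 in trained libraries. These values overlap with the sedentary libraries and with each other, and lie below all 0 h libraries. Within untrained muscle 20.1% and within trained muscle 34.5% of all tested genes were lower in all 6 h than in all 0 h libraries. From 0 h to 6 h Myog fell by 1.25 on the log2 scale in untrained muscle (limma, adjusted p = 0.00613), where 4.64% of all genes were called, and by 1.63 in trained muscle (adjusted p = 0.000581), where 6.46% were called. Without the shared library these differences were −0.997 in untrained (limma, adjusted p = 0.0458) and −1.57 in trained muscle (adjusted p = 0.00243). Against sedentary muscle, the 6 h differences of 0.47 and 0.48 did not pass the test (adjusted p = 0.339 and 0.289). At 72 h Myog ranged from 1.08 to 1.46 TPM in untrained and from 0.807 to 1.05 TPM in trained muscle. The trained libraries were all lower there, as for 24.6% of all tested genes, and the difference of −0.30 was not called (adjusted p = 0.650). Ordered by their means, the groups ran from trained 0 h over untrained 0 h, trained 6 h, untrained 6 h, untrained 72 h and trained 72 h to sedentary, and neighbours in this order overlapped except between untrained 0 h and trained 6 h and between untrained 72 h and trained 72 h.

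Myod1, the lineage factor of myoblasts, was highest in untrained muscle at 6 h. The sedentary libraries had 2.80, 4.21 and 6.21 TPM. At 0 h the untrained libraries had 9.40, 8.68 and 5.18 TPM and the trained libraries 9.40, 5.93 and 5.04 TPM, and both groups overlapped with the sedentary libraries. At 6 h untrained muscle had 8.73, 15.8 and 14.8 TPM, all above the sedentary libraries, as for 11.7% of all tested genes. Trained muscle had 5.27, 7.29 and 6.41 TPM and overlapped with the sedentary libraries. Myod1 thus rose in untrained muscle at 6 h by 1.49 ± 0.31 (log2 ± SE; limma, adjusted p = 0.00552), a 2.97-fold higher mean. The differences at 0 h, 0.77 in untrained (adjusted p = 0.142) and 0.59 in trained muscle (adjusted p = 0.232), and at 6 h in trained muscle, 0.53 (adjusted p = 0.320), were not called.

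At 72 h both groups overlapped with the sedentary libraries for Myod1, with 4.70, 3.98 and 7.39 TPM in untrained and 4.49, 5.05 and 3.53 TPM in trained muscle. From 6 h to 72 h Myod1 fell by 1.22 on the log2 scale in untrained muscle (limma, adjusted p = 0.0203), a comparison in which 4.04% of all genes were called. This call was lost without any 1 of untrained 6 h replicates 2 and 3 or untrained 72 h replicates 1 and 2 (adjusted p between 0.0728 and 0.0986), and without the filter on low values (adjusted p = 0.0503). In trained muscle the 6 h to 72 h difference of −0.49 was not called (adjusted p = 0.390), with 3.48% of all genes called. Ranked by mean, Myod1 ran from untrained 6 h over untrained 0 h, trained 0 h, trained 6 h, untrained 72 h and sedentary to trained 72 h, and every pair of neighbours overlapped.

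Myf6, the MRF of mature fibres, rose at 0 h in both training states and rose further by 6 h in untrained muscle. Its TPM was 26.5, 26.9 and 29.7 in sedentary muscle. At 0 h untrained muscle had 51.3, 38.4 and 39.3 TPM, whereas trained muscle had 51.3, 52.4 and 36.3 TPM. All 0 h libraries were higher than all sedentary libraries, as for 22.9% of all tested genes in untrained and 26.3% in trained muscle. Myf6 rose by 0.61 ± 0.16 (log2 ± SE) in untrained (limma, adjusted p = 0.0270) and by 0.72 ± 0.16 in trained muscle (adjusted p = 0.00881). The rise was close to the fold threshold: without the shared library it was 0.48 in untrained (adjusted p = 0.139, not called) and 0.65 in trained muscle (adjusted p = 0.0348). In untrained muscle the call was also lost without sedentary replicate 1 or 2 (adjusted p = 0.0913 and 0.0921), and median-of-ratios scaling brought both 0 h differences below the fold threshold, to 0.49 and 0.57.

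At 6 h the Myf6 values were 50.1, 73.8 and 79.2 TPM in untrained and 35.7, 37.4 and 37.2 TPM in trained muscle. The untrained libraries all lay above the sedentary ones, as for 11.7% of all tested genes, and the trained libraries formed a narrow group between them. Myf6 was 1.25 ± 0.16 higher than in sedentary muscle in untrained (limma, adjusted p = 8.39e-05), a 2.44-fold higher mean. In trained muscle the difference was 0.40 ± 0.16 and not called (adjusted p = 0.123). All 3 trained libraries were above all sedentary libraries, as for 13.9% of all tested genes. From 0 h to 6 h Myf6 rose by 0.63 in untrained muscle (adjusted p = 0.0164). There the groups overlapped only through the shared library, and the difference was 0.77 without it (adjusted p = 0.0115). Leaving out untrained 0 h replicate 2 or 3 or untrained 6 h replicate 2 or 3 ended this call (adjusted p between 0.0549 and 0.0708). In trained muscle the 0 h to 6 h difference was −0.32 (adjusted p = 0.148).

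At 72 h Myf6 had 27.3, 30.7 and 29.7 TPM in untrained and 25.96, 24.99 and 27.33 TPM in trained muscle, and both groups overlapped with sedentary muscle. From 6 h to 72 h it fell by 1.17 in untrained muscle (limma, adjusted p = 0.000168). In trained muscle the difference of −0.49 missed the threshold (adjusted p = 0.0663). The group means ran from untrained 6 h over trained 0 h, untrained 0 h, trained 6 h, untrained 72 h and sedentary to trained 72 h, with gaps between libraries on either side of trained 6 h and overlaps elsewhere.

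**Figure D2:**
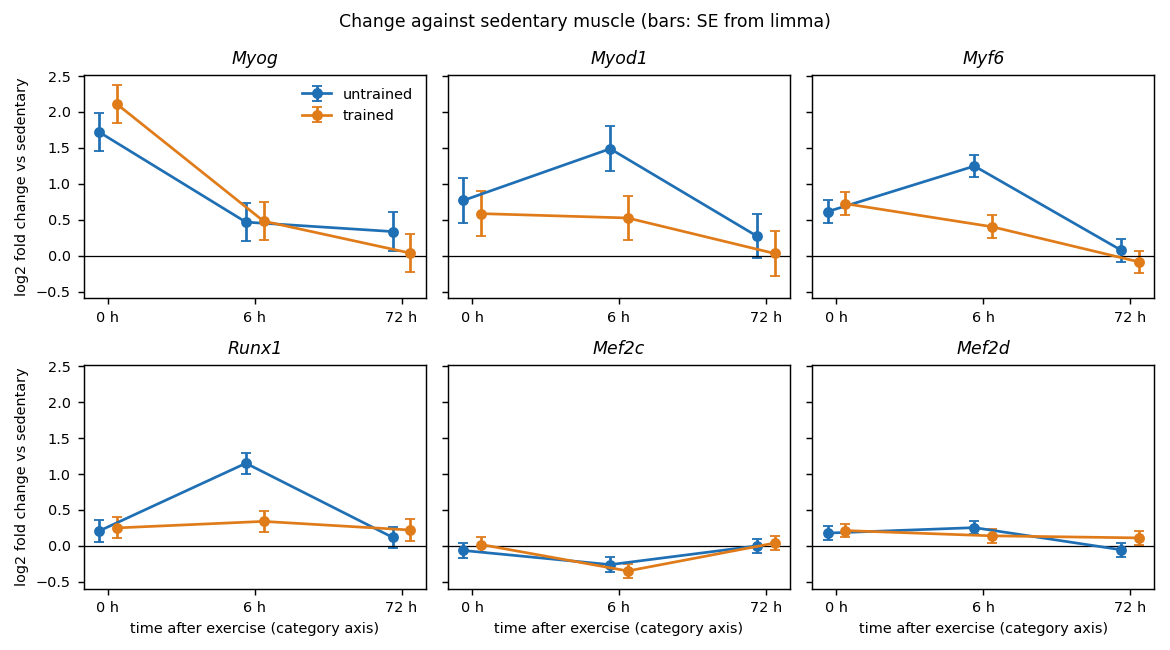
Log2 fold change against sedentary muscle (y axis, with the SE from limma) at the 3 times after exercise (x axis, not to scale) for 6 members in untrained (blue) and trained (orange) muscle. Runx1 comes from the fit without the filter on low values. Myog was highest at 0 h in both states, and at 6 h Myod1, Myf6 and Runx1 stood at 1.49, 1.25 and 1.15 in untrained against 0.53, 0.40 and 0.34 in trained muscle.

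Runx1 had low levels throughout and was highest in untrained muscle at 6 h. The sedentary libraries had 0.221, 0.201 and 0.240 TPM. At 6 h untrained muscle had 0.772, 1.60 and 1.03 TPM and trained muscle 0.610, 0.357 and 0.300 TPM. All 3 untrained values were higher than those of any other group. Untrained 6 h libraries were all above the sedentary libraries for 11.7% of all tested genes, and the share above every other group was not counted. In the fit without the filter Runx1 rose by 1.15 ± 0.15 (log2 ± SE) in untrained muscle (limma, adjusted p = 0.000276), where 1.41% of all genes were called. Its mean TPM was 5.14-fold higher, a ratio that the added 0.5 makes smaller on the log2 scale. In trained muscle at 6 h the difference was 0.34 (adjusted p = 0.310). Libraries of all other exercised groups, between 0.255 and 0.426 TPM at 0 h and 72 h, also lay above the sedentary libraries, with no call. All libraries were above sedentary for 22.9% of all tested genes in untrained and 26.3% in trained muscle at 0 h, and for 9.04% and 5.63% at 72 h. From 0 h to 6 h Runx1 rose by 0.94 in untrained muscle (adjusted p = 0.00127), with 1.73% of all genes called, and from 6 h to 72 h it fell by 1.03 (adjusted p = 0.000857), with 1.29% called.

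Runx1 is also expressed in blood-borne cells, and macrophage markers were looked at beside it. Of the 10 markers, 6 passed the filter. At 6 h in untrained muscle 2 of these 6 were called, Cd68 with a rise of 1.62 (limma, adjusted p = 6.41e-05) and Csf1r with a rise of 0.61 (adjusted p = 0.0185). The 10 markers summed to between 39.0 and 43.5 TPM in sedentary, between 34.9 and 72.6 TPM in untrained 6 h and between 33.4 and 47.6 TPM in trained 6 h libraries. None of the markers was at 0 in all libraries. Their sum lay above all sedentary libraries at 0 h in untrained (49.4 to 55.0 TPM) and trained muscle (49.5 to 49.9 TPM) and at 72 h in untrained muscle (56.3 to 60.7 TPM). Runx1 was not called against sedentary muscle in these groups. At 72 h in trained muscle the sum was between 41.0 and 47.2 TPM. Cd68 was still high at 72 h in untrained muscle, with a difference of 1.53 (adjusted p = 0.0120), when Runx1 stood at 0.283 ± 0.0239 TPM. Summed fibro-adipogenic markers varied more among untrained 6 h libraries, from 195.5 to 461.5 TPM, than within any other group. The 6 neutrophil markers each had a mean below 1 TPM. The part of such cells in the Runx1 result was not tested.

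The MEF2 genes had high levels and small differences between groups. Mef2c had 77.0, 67.4 and 80.1 TPM in sedentary muscle, 54.3, 66.2 and 66.9 TPM in untrained muscle at 6 h and 57.2, 58.2 and 60.2 TPM in trained muscle at 6 h. Both 6 h groups were below all sedentary libraries, as for 8.72% of all tested genes in untrained and 15% in trained muscle. The difference was −0.35 ± 0.10 (log2 ± SE) in trained (limma, adjusted p = 0.0411) and −0.26 ± 0.10 in untrained muscle (adjusted p = 0.140), and neither reached the fold threshold. At 0 h Mef2c ranged from 66.1 to 81.2 TPM in untrained and from 66.1 to 82.1 TPM in trained muscle, and at 72 h from 71.7 to 77.1 and from 71.2 to 81.6 TPM, and these groups overlapped with sedentary muscle. In trained muscle the differences were −0.37 from 0 h to 6 h (adjusted p = 0.0175) and 0.39 from 6 h to 72 h (adjusted p = 0.0258), again below the fold threshold. With median-of-ratios scaling the first of these was −0.20 (adjusted p = 0.158).

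Mef2d ranged from 36.4 to 53.4 TPM and Mef2a from 15.5 to 21.1 TPM over all libraries, and neither was called in any comparison. At 0 h Mef2a differed from sedentary muscle by 0.11 in untrained and 0.17 in trained muscle, and the sign turned under rescaled TPM (−0.058 and −0.0136) and, in untrained muscle, under median-of-ratios scaling (−0.007). For Mef2d the largest difference was between 6 h and 72 h in untrained muscle, −0.31 ± 0.09 (log2 ± SE; limma, adjusted p = 0.0527), with means of 49.8 ± 5.32 and 40.1 ± 3.70 TPM (SD, n = 3) and overlapping libraries. For Mef2a it lay between the same groups, −0.18 ± 0.09 (adjusted p = 0.227), with means of 18.9 ± 2.97 and 16.4 ± 0.0246 TPM. Within untrained muscle at 6 h, Mef2a, Mef2c and Mef2d were each lowest in replicate 1, the library in which Myod1, Myf6 and Runx1 were also lowest of the 3.

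Myf5 and Pax7, the members linked to myoblasts and satellite cells, stayed at low levels. Myf5 ranged from 0.250 to 0.560 TPM over all libraries and Pax7 from 0.166 to 0.347 TPM. All untrained 0 h libraries were lower than all sedentary libraries for 4.22% of the tested genes. Pax7 had this order (0.166 to 0.217 against 0.276 to 0.347 TPM). Its difference of −0.21 ± 0.06 in the fit without the filter was not called (limma, adjusted p = 0.104). Myf5 was also lower there, with 0.380 ± 0.0293 against 0.536 ± 0.0148 TPM (SD, n = 3; adjusted p = 0.394). At 6 h the larger of their differences from sedentary muscle was −0.20, for Myf5 in trained muscle (adjusted p = 0.508). Myf5 was also lower in all trained 72 h libraries, with 0.366 ± 0.0846 TPM (−0.26, adjusted p = 0.650), an order that 13.8% of the tested genes showed. Of the 12 satellite cell markers, 5 had a mean below 1 TPM. Their sum was between 35.6 and 43.5 TPM in sedentary, between 46.0 and 56.4 TPM in untrained 0 h and between 48.0 and 56.4 TPM in trained 0 h libraries. The only marker of that list called against sedentary muscle was Sdc4, a heparan sulfate proteoglycan found on satellite cells and on other cells. It rose at 0 h by 1.23 in untrained (adjusted p = 0.000636) and by 1.33 in trained muscle (adjusted p = 0.000284), while Pax7 did not rise.

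Trained and untrained muscle were compared directly at the same time after the run. Without trained muscle that had not run, a level set by training and a response to the run cannot be told apart here. At 0 h no member was called and none had an unadjusted p below 0.05 (limma). Of all tested genes 0% were called, and 143 had such a p. Both 0 h groups hold the shared library, which draws their means together and keeps their libraries from separating for any gene. The absence of calls therefore does not show that the training states were alike at 0 h. Without the shared library every member differed more, for example Myog by 0.586 in place of 0.391 and Myod1 by −0.275 in place of −0.183. No tested member was called there either, with 2 libraries per group. At 6 h 1 of the 6 tested members was called, against 2.01% of all tested genes, and Runx1 in addition in the fit without the filter, where 0.603% were called. At 72 h no member was called, against 0.245% of all genes.

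Myf6 at 6 h was lower in trained muscle, with a log2 difference of −0.84 ± 0.16 (SE; limma, adjusted p = 0.00526) and means of 36.8 ± 0.937 against 67.7 ± 15.5 TPM (SD, n = 3). Runx1 differed by −0.81 ± 0.15 (adjusted p = 0.00933), with 0.422 ± 0.165 against 1.13 ± 0.422 TPM. For both genes all 3 trained libraries were lower than all 3 untrained libraries, an order that 11.5% of all tested genes showed. With only these groups in the model neither was called (adjusted p = 0.196 for Myf6 and 0.505 for Runx1). The Runx1 call was lost without trained 6 h replicate 3 (−0.71, adjusted p = 0.0518), and a pseudocount of 1 brought it below the fold threshold (−0.57). Myod1 showed the same order of libraries, with 6.32 ± 1.01 against 13.1 ± 3.83 TPM, but its difference of −0.96 ± 0.31 was not called (adjusted p = 0.0952). Without untrained 6 h replicate 1 it was −1.22 and called (adjusted p = 0.0326). Myog at 6 h had means of 1.54 ± 0.515 and 1.499 ± 0.419 TPM, and its difference of 0.01 ± 0.27 allows changes in either direction. Mef2a, Mef2c and Mef2d differed by −0.07, −0.09 and −0.11, Myf5 by −0.02 and Pax7 by 0.11 at 6 h, none of them called. Of the 6 tested macrophage markers, 2 were called in this comparison, Cd68 with −1.47 (limma, adjusted p = 0.000473) and Csf1r with −0.78 (adjusted p = 0.00712). The sums of all 10 markers overlapped, with 33.4 to 47.6 TPM in trained and 34.9 to 72.6 TPM in untrained libraries. Cd68 was also called lower in trained muscle at 72 h (−1.24, adjusted p = 0.0125).

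**Figure D3:**
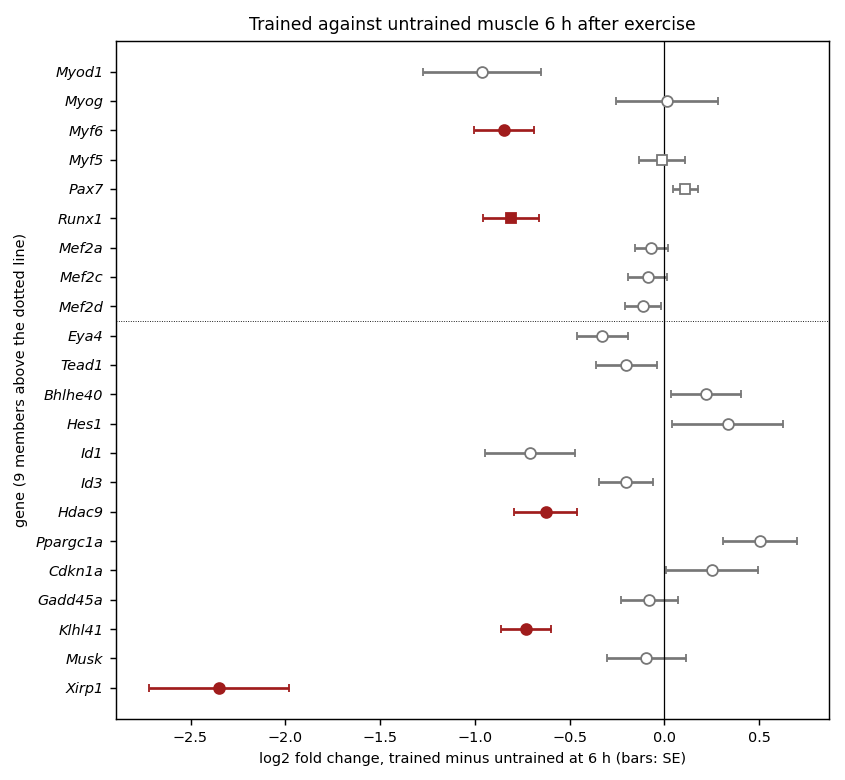
Log2 fold change of trained against untrained muscle at 6 h (x axis, bars show the SE) for the 9 members, above the dotted line, and the 13 pathway genes called in at least 1 of the 9 comparisons with sedentary muscle or between training states. Filled red symbols were called, and squares come from the fit without the filter on low values. Myf6 (−0.84) and Runx1 (−0.81) were called among the members, with Hdac9 (−0.63), Klhl41 (−0.73) and Xirp1 (−2.35) among the pathway genes.

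At 72 h the trained libraries of Myf6 (24.99 to 27.33 TPM) lay just below the untrained ones (27.35 to 30.72 TPM), with a difference of −0.16 (limma, adjusted p = 0.684). The trained libraries of Myog and Pax7 were likewise all lower and those of Runx1 all higher. At this time the trained libraries were all lower for 24.6% and all higher for 3.93% of all tested genes.

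The genes around these factors were described with 5 lists of 83 genes, of which 61 passed the filter. In at least 1 of the 9 comparisons with sedentary muscle or between training states, 13 of these 61 (21.3%) were called, against 9.76% of all tested genes. By list these were 2 of 15 partners of the MRFs, 4 of 13 MRF inhibitors, 2 of 15 partners and inhibitors of MEF2, 0 of 1 RUNX family gene and 5 of 17 differentiation targets. The 1 tested RUNX family gene was Cbfb, the partner of RUNX proteins, with 37.0 ± 9.79 TPM (SD, n = 3) in sedentary muscle and no call.

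The MRF inhibitors that rose did so at 0 h, alongside Myog. Id1 and Id3 encode helix-loop-helix proteins without a basic domain that sequester E proteins, and Hes1 encodes a repressor downstream of Notch. Id1 went from 2.59 ± 1.24 TPM (SD, n = 3) in sedentary muscle at 0 h to 14.8 ± 0.542 TPM in the untrained group and to 14.2 ± 1.95 TPM in the trained group, a rise of 2.38 (limma, adjusted p = 7.59e-06) and 2.31 (adjusted p = 9.59e-06) on the log2 scale. Hes1 went from 5.49 ± 0.863 to 25.7 ± 12.8 and 32.2 ± 11.003 TPM, a rise of 2.04 and 2.39. Id3 went from 4.64 ± 0.582 to 9.05 ± 1.10 and 8.99 ± 1.25 TPM, a rise of 0.89 and 0.88. All 3 calls in both states held without the shared library, with differences of 2.35 and 2.24 for Id1, 1.66 and 2.20 for Hes1 and 0.90 and 0.88 for Id3. Over the 13 tested inhibitors the median difference at 0 h was 0.175 in untrained and 0.202 in trained muscle, beside 0.105 and 0.133 over all genes. Bhlhe40, a repressor tied to the clock, fell at 6 h from 24.8 ± 5.28 to 13.3 ± 0.576 TPM in untrained (−0.86, adjusted p = 0.00650) and to 15.7 ± 3.18 TPM in trained muscle (−0.64, adjusted p = 0.0352), and the call in trained muscle was lost without any 1 of sedentary replicates 1 and 3 or trained 6 h replicates 1 and 2 (adjusted p between 0.0698 and 0.161), and without the filter on low values (adjusted p = 0.0798).

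Among the differentiation targets, Cdkn1a, the cell cycle inhibitor p21, rose at 0 h from 3.48 ± 0.261 TPM (SD, n = 3) to 17.6 ± 5.50 in untrained (2.15 on the log2 scale; limma, adjusted p = 2.52e-05) and to 16.9 ± 6.25 TPM in trained muscle (2.07, adjusted p = 3.51e-05), and was still called at 6 h with 1.14 and 1.39. Without the shared library the 0 h differences were 1.91 and 1.80, both called. The other called targets rose at 6 h. Musk, the receptor tyrosine kinase of the neuromuscular junction, went from 2.16 ± 0.462 to 8.22 ± 2.97 TPM in the untrained and 7.38 ± 0.621 TPM in the trained group, a rise of 1.67 and 1.58. Gadd45a, a stress-response gene known to rise in denervated muscle, went from 10.002 ± 1.01 to 17.5 ± 3.58 and 16.4 ± 2.04 TPM, a rise of 0.76 and 0.68. The Gadd45a rise in trained muscle came to just under the fold threshold without trained 6 h replicate 3 (0.583). Neither Musk nor Gadd45a was called between training states at 6 h, with differences of −0.10 ± 0.21 (SE; adjusted p = 0.870) and −0.08 ± 0.15 (adjusted p = 0.844). Over the 17 tested targets the median at 6 h was 0.077 in untrained and 0.059 in trained muscle, beside 0.015 and −0.015 over all genes. These medians join members with differences of either sign, and 10 of the 17 targets in untrained and 6 in trained muscle had an unadjusted p below 0.05 at 6 h (limma), with 5 and 4 called. Of all 11819 tested genes, 2574 in untrained and 2854 in trained muscle had such a p, with 4.42% and 3.85% called.

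Xirp1 and Klhl41, which encode an actin-binding repair protein and a sarcomere-associated Kelch protein, were, like Myf6, called between training states at 6 h. Xirp1 was at 19.2 ± 8.59 TPM (SD, n = 3) in sedentary muscle, between 209 and 330.0 TPM in untrained 6 h libraries and between 31.4 and 94.5 TPM in trained 6 h libraries. It rose by 3.74 in untrained (limma, adjusted p = 6.96e-06) and by 1.39 in trained muscle (adjusted p = 0.0246), and the groups differed by −2.35 ± 0.37 (adjusted p = 0.00156). The call in trained muscle was lost without sedentary replicate 1 or 3 or trained 6 h replicate 1 (adjusted p between 0.0909 and 0.115), and without the filter on low values (adjusted p = 0.0589). Klhl41 rose from 127 ± 7.07 to 236 ± 47.9 TPM in untrained muscle at 6 h (0.88, adjusted p = 0.000418). In trained muscle it stood at 142 ± 24.6 TPM with no call, and the difference between training states was −0.73 ± 0.13 (adjusted p = 0.00375), which fell below the fold threshold without untrained 6 h replicate 2 (−0.57). With only these groups in the model the differences between training states were not called for Xirp1 (adjusted p = 0.177) or Klhl41 (adjusted p = 0.253).

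**Figure D4:**
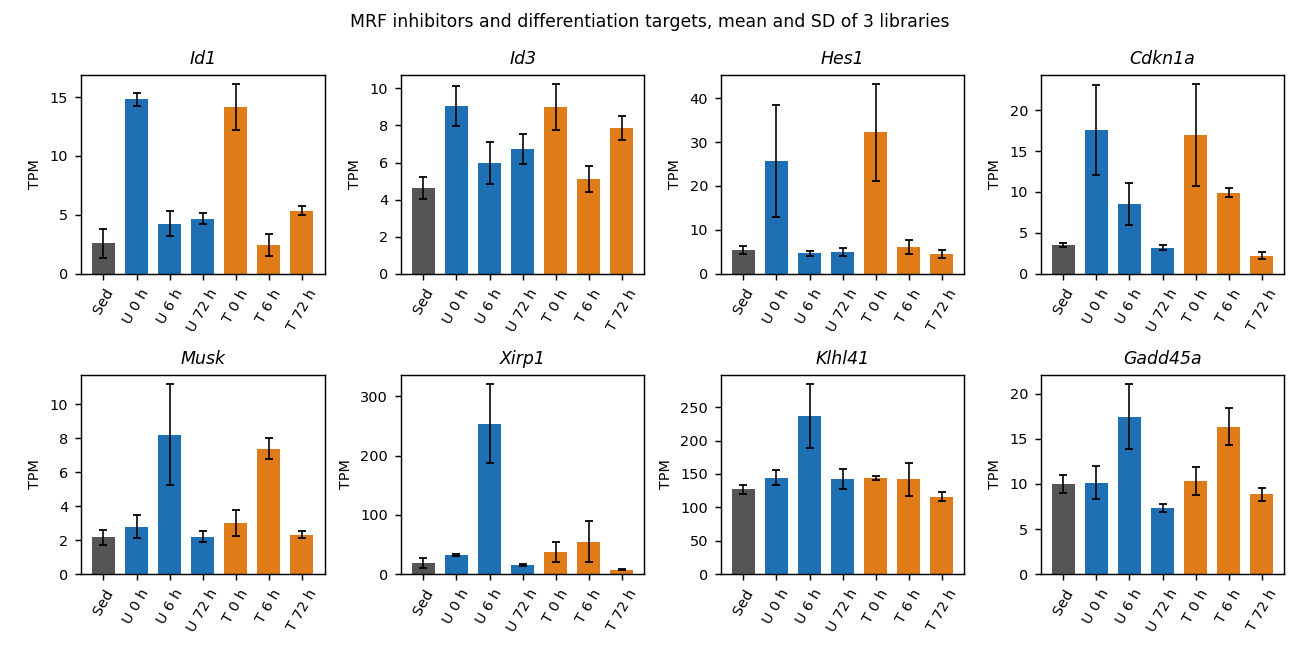
Mean TPM (bars, linear axis from 0) with the SD of 3 libraries for 3 MRF inhibitors and 5 differentiation targets by group, including the shared library in both 0 h groups. Id1, Id3, Hes1 and Cdkn1a were highest at 0 h in both states, Musk and Gadd45a were high at 6 h in both, and Xirp1 and Klhl41 had their highest means in untrained muscle at 6 h.

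Among the partners of MEF2, Ppargc1a, the coactivator PGC-1α of mitochondrial gene expression, went from 3.90 ± 0.739 TPM (SD, n = 3) in sedentary muscle at 6 h to 27.1 ± 5.49 TPM in the untrained group and to 38.9 ± 9.75 TPM in the trained group, a rise of 2.65 (limma, adjusted p = 2.78e-07) and 3.15 (adjusted p = 3.97e-07). The difference between training states, 0.50 ± 0.20, was not called (adjusted p = 0.177). Hdac9, a class IIa histone deacetylase that represses MEF2, fell in trained muscle at 6 h from 1.18 ± 0.169 to 0.462 ± 0.0345 TPM (−0.80, adjusted p = 0.00586) and differed from untrained muscle by −0.63 ± 0.17 (adjusted p = 0.0422). Its level is close to the filter, and the difference between training states was lost when any 1 of 5 of the 6 libraries was left out (adjusted p between 0.0862 and 0.165), without the filter on low values (adjusted p = 0.0705) and with the replicate number as a block (adjusted p = 0.0505).

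Of the MRF partners, Eya4, a transcriptional coactivator and phosphatase, rose at 6 h in untrained muscle from 6.26 ± 0.628 to 11.7 ± 3.25 TPM (SD, n = 3; 0.83 on the log2 scale; limma, adjusted p = 0.000884). In trained muscle it had 9.06 ± 1.14 TPM (0.50, adjusted p = 0.0267, below the fold threshold). Tead1, a TEA domain factor of muscle promoters, fell in trained muscle at 6 h from 21.8 ± 3.06 to 14.1 ± 0.597 TPM (−0.61, adjusted p = 0.0244), and leaving out any 1 of 5 of the 6 libraries ended this call (adjusted p between 0.0584 and 0.0922), as did fitting without the filter on low values (adjusted p = 0.0561). The other tested partners, 13 of 15, were not called in these comparisons. The lists and their members were chosen with results of these data in view, so their counts describe the lists and are no independent evidence.

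Across the 20 distinct libraries, the genes whose log2 level was most like that of each tested member were listed as a description, and all of these libraries share the same groups. For Myf6 these were Unc45b (Pearson r = 0.954), Ubb (0.944) and Gm9817 (0.942). For Myog they were Josd1 (0.950), Hdgfl2 (0.948) and Zfp36l1 (0.941). Myod1 was most like Smarcb1, Myf6 and Fem1b, each with r = 0.855, and Myf6 was thus the 1 other member among the closest genes of any member. For Mef2a the closest were Dcaf10 (0.925), Mdm2 (0.918) and Larp1 (0.909), for Mef2c Tmtc1 (0.913), Xpr1 (0.906) and Plaat1 (0.901), and for Mef2d Psmd4 (0.871), Surf6 (0.841) and Ftsj3 (0.836).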

How the data were processed

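Bulk RNA-seq libraries of quadriceps muscle (TruSeq RNA Library Prep Kit v2) were aligned to GRCm39 with STAR 2.7.9 and quantified with Salmon 1.5.0, per the submitters' processing notes and the methods of the study. The authors deposited TPM values for 53738 gene symbols in 21 libraries, with totals between 997304 and 997921 per library. The gene annotation used for them is not given in the sources used here. Groups and replicate numbers came from the labels, which name the replicates as separate samples. The model counts the 2 identical 0 h columns as separate libraries, so its 14 residual degrees of freedom rest on 20 distinct libraries. The p-values use a spread shared over all 7 groups and adjusted with a trend over genes. They do not measure the spread within the compared groups alone.

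TPM were transformed to log2(TPM + 0.5), and genes averaging 1 TPM or more were fitted with limma 3.58.1 (lmFit, eBayes with a variance trend) in R 4.3.3, with 7 group means in 1 model (14 residual degrees of freedom) and p-values adjusted over all 11819 tested genes within each of 13 comparisons (Benjamini-Hochberg). These were 6 exercised groups against sedentary, trained against untrained at 3 times and 4 steps in time. Calls needed an adjusted p below 0.05 together with a log2 difference of 0.585 or more, up or down. Myf5, Pax7 and Runx1 were read from the fit without the filter, a choice made after seeing the data. Fold changes on this scale understate changes of low genes.

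The members, the pathway and marker lists, the tests and the alternatives were chosen with earlier results of these data known. The text names all members, every pathway gene called in at least 1 of 9 comparisons, with values for the 4 with the largest change in each list and in addition for Gadd45a, and for each tested member the 3 genes with the highest Pearson r. Markers, Cbfb and other genes were named after their values were seen. Gene positions, starts and sequences came from the GRCm39 genome and its GENCODE annotation. The model was also run on simulated independent libraries, read for untrained 6 h against sedentary muscle only. These held no duplicated library, so the run does not bear on the 0 h groups. Figures were drawn with matplotlib 3.10.9 and pandas 2.3.3 in Python 3.11.15. Alternatives were pseudocounts of 0.1 and 1, no filter, a stricter filter (mean of 5 TPM or more), median-of-ratios scaling, TPM rescaled without mitochondrial genes and the 10 highest genes, only the groups compared, the replicate number as a block, no variance trend, sample quality weights, no fold threshold, the shared library left out, and each replicate left out in turn.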

Additional observations from a re-analysis of the deposited data

Results flagged for a closer look

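Levels at 6 h after the run differed between trained and untrained muscle, in the direct test of the difference, for 2 members and 3 pathway genes. The log2 difference, trained minus untrained, was −0.84 for Myf6 (limma, adjusted p = 0.00526), −0.81 for Runx1 in the fit without the filter on low values (adjusted p = 0.00933), −0.63 for Hdac9 (adjusted p = 0.0422), −0.73 for Klhl41 (adjusted p = 0.00375) and −2.35 for Xirp1 (adjusted p = 0.00156). For each of these genes the 3 trained libraries were all lower than the 3 untrained libraries, as they were for 11.5% of all tested genes. Fitted to the 6 h groups alone, none of the 5 was called (adjusted p = 0.196 for Myf6, 0.505 for Runx1, 0.132 for Hdac9, 0.253 for Klhl41 and 0.177 for Xirp1). With 3 libraries per group, single libraries were not tested for standing apart.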

How the results depend on the processing

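No called result changed direction under any alternative run. Under settings that keep all replicates or drop only the shared library, 295 of the 317 values of single members, and 281 of the 301 of pathway genes, stayed on the same side of the threshold. The member values cover every call and chosen comparisons of Myod1, Mef2c, Myf6 and Runx1 that were not called. The latter have no call to lose, so the ratio overstates how stable the calls were. Among the member values 19 lost a call and 3 gained one, and 20 pathway values lost a call. In a model holding the 2 compared groups alone, which estimates the spread from 6 libraries, the calls of members fell from 6 to 3 against sedentary muscle (Myog at 0 h in both states and Myf6 at 6 h in untrained muscle), from 1 to 0 for trained against untrained muscle and from 5 to 2 between successive times. Trained against untrained muscle gave 2 calls of members without the filter and 2 with rescaled TPM, Runx1 being the added call in both, successive times gave 3 with a filter at a mean of 5 TPM, and 24 in place of 13 pathway genes were called with no fold threshold. Over all settings that keep every replicate or drop only the shared library, the counts ran from 3 to 7 against sedentary muscle, from 0 to 2 between training states, from 2 to 7 between successive times and from 9 to 24 for pathway genes. Leaving out each replicate in turn gave 5 to 6 calls against sedentary muscle, 1 to 2 between training states, 3 to 5 between successive times and 12 to 14 pathway genes. Replicate numbers were not taken to pair the libraries, since neither the labels nor every pair's correlation supported it. Deviations from group means had a median r of 0.018 (between −0.115 and 0.134) over 62 pairs with the same number and of −0.00516 over 126 other pairs. Of 21 libraries, 13 correlated best with their own number, more than the proportion of same-number pairs would give. This hint of pairing comes from the data and not from the design. Only the pair of identical columns was left out. The shared library stays replicate 1 of both 0 h groups in the other pairs, so the count is not free of it. With the replicate block the counts were 6, 1, 5 and 13, as without it, and the block ended only the call of Hdac9 between training states. TPM keep no depth, which limits what can be said of Myf5, Pax7 and Runx1. The causes of these changes were not tested.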
